A study of Mus musculus with 60 samples.

Results

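Prps1, Nxt2, Tmem164 and Alg13 are 4 X-linked genes that lie in this order, all on the plus strand, in the distal part of the mouse X. They were chosen by a measured loss, after induction, of the share of their reads that came from the X carrying an inducible Xist transgene, both in clones with the transgene on the Cast/Ei X and in clones with the transgene on the 129/Sv X. The 4 genes are among 16 X genes listed in the 5 Mb from 140 Mb on, among 490 listed X genes and among 14383 listed genes in all. Allele shares, allele counts and total counts of clones with an X-linked transgene chose the genes, so these values are described and not tested. Tests are given only for contrasts other than the one that measured this loss. The choice also had the listing and the values of all libraries in view, so these tests are not fully independent of it.

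The libraries came from female F1 2-1 ESCs, whose homologous chromosomes are of 129/Sv and Cast/Ei origin, grown with LIF and inhibitors of MEK and GSK3, and all clones carry a doxycycline-inducible Xist transgene. Treated ESCs received 2 µg/ml doxycycline for 5 days. Each clone is a single cell line, sampled in most cases in 2 untreated and 2 treated libraries. In Tg-E clones the transgene sits at the endogenous Xist locus of the Cast/Ei X (clone 87, with clone 68 present as 1 treated library). In the 4 Tg-X clones (85, 86, 109, 190) it is on the Cast/Ei X, in 109 within the Xist region and in the others elsewhere. In the 3 clones of type Tg-X;8 (267, 339, 203b) it lies on a fusion of the 129/Sv X with a part of chromosome 8, so the affected X genes are of 129/Sv origin, and clone 203b has 1 treated library. Clone 267 also has a Tsix-Stop allele on the 129/Sv X. Tg-X clones carry the same fusion chromosome, without the transgene on it, so both types have an extra copy of that part of chromosome 8. Both types also lack the distal end of the 129/Sv X, and the 4 genes lie proximal to the lost part. Clones 228, 273 and 38 are labelled with the transgene on chromosome 12, of which such clones carry an extra copy, and 4 libraries came from cells labelled 20 and 38 that were differentiated into neurons, 1 untreated and 1 treated for each label. Clone 160 is labelled with an X-linked transgene but described in the study as a chromosome 12 clone with a Tsix-Stop allele on the 129/Sv X, and it was kept apart.

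Xist is the long non-coding RNA that coats a chromosome in cis and starts its transcriptional silencing during X chromosome inactivation in female mammals. In F1 cells a sequence difference between the parental genomes tells the alleles apart, so silencing of one X appears as a loss of the share of that allele. The study saw an Xist-coated chromosome in only part of the treated cells. A treated share is thus an average over cells with and without it, and how large that part was in each library is not known here. Prps1 encodes phosphoribosyl pyrophosphate synthetase, which supplies the activated ribose for purine, pyrimidine and NAD synthesis. Nxt2 is a partner of the nuclear export receptors of mRNA, Tmem164 is a multi-pass membrane protein with a role in the synthesis of ether phospholipids, and Alg13 is the catalytic subunit of the enzyme that adds the second N-acetylglucosamine to the lipid-linked precursor of N-glycans.

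In RefSeq on GRCm38.p6 Prps1 spans chrX:140456603-140476140, Nxt2 chrX:142226770-142239700, Tmem164 chrX:142680347-142843494 and Alg13 chrX:144317966-144374450. The gaps between neighbours are 1751, 441 and 1474 kb, and the whole stretch covers 3918 kb. The position that the files give for each gene is a stretch of an exon near its 3′ end. It lies in the last exon for Prps1, Nxt2 and Alg13. In Tmem164 it lies in an exon that ends before the annotated end of the gene, and whether that exon is the last of its own transcript was not checked. Of the 972 listed bases of Prps1, 879 lie behind the last coding base. For Nxt2 this holds for 1873 of 2055 bases, for Tmem164 for 3980 of 4187 bases and for Alg13 for all 901 bases, so these positions are mostly 3′ UTR.

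The promoters of the 4 genes are printed because transgene-allele share was lost at all of them while their total levels behaved differently. They are 300-base windows of RefSeq around an annotated start, and for Nxt2 and Tmem164, which have more than 1 window, the one with the GC box is shown. Capitals mark the GC box GGGCGG on either strand (GGGCGG or CCGCCC) and the TATA box TATAAA on either strand.
Prps1, chrX:140456353-140456652, plus strand: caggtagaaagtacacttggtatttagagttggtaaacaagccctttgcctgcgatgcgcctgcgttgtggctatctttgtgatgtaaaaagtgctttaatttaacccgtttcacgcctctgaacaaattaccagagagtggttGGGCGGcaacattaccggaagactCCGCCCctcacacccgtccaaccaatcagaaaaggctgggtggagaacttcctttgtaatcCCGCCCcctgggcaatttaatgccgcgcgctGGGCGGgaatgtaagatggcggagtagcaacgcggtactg
Nxt2, chrX:142227927-142228226, plus strand: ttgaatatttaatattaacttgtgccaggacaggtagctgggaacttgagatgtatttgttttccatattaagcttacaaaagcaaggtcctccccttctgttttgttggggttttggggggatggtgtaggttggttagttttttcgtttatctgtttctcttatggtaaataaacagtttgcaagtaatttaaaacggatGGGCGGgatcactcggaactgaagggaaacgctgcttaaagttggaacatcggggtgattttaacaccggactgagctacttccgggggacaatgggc
Tmem164, chrX:142681476-142681775, plus strand: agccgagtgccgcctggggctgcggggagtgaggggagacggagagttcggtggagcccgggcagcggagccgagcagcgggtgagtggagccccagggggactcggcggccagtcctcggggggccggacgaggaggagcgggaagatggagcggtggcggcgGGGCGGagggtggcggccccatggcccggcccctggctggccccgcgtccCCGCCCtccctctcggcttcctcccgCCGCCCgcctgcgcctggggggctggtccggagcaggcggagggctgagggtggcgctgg
Alg13, chrX:144317716-144318015, plus strand: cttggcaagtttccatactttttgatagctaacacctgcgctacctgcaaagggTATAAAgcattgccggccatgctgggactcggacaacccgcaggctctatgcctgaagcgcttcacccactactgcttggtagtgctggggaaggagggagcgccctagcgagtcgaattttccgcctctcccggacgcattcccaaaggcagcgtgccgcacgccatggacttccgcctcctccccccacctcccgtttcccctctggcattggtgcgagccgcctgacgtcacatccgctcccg
The Prps1 window held 4 GC boxes, the Tmem164 window 3, the Nxt2 window 1 and the Alg13 window none, while Alg13 alone among them held the TATA box. GGGCGG was found in 35.7% of all 32851 promoter windows of the same length and TATAAA in 13.6%. For Nxt2 and Tmem164 the GC box decided which window is shown, and the other window of each held none, so their boxes cannot be set against that share. The windows differed widely in base composition. Tmem164 had 78.7% GC and 32 CpG, Alg13 60.3% and 21, Prps1 51.3% and 17, and Nxt2 42.3% and 8, against medians of 52.7% and 7 over all windows. None of the printed windows held the E-box CACGTG, which 7.15% of all windows hold. The 5-base word CCCTC, searched on both strands, occurred 6 times in the Tmem164 window, 2 times in that of Alg13, 1 time in that of Prps1 and not in that of Nxt2, and is held by 66.0% of all windows.

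The 4 genes were listed in every library, which the choice had asked for. The allele-specific reads of an ESC library numbered from 731374 to 5830149, and between 92 and 817 on Prps1, 17 and 284 on Nxt2, 20 and 371 on Tmem164, and 284 and 3041 on Alg13. Nxt2 and Tmem164 shares are therefore the least precise. The treated library of clone 203b had 17 reads on Nxt2, and its Cast share of 0.706 had a 95% Wilson interval of 0.469 to 0.867, which covers counting error only. Xist was low or not listed in untreated ESCs of X-transgene clones (24.1 to 239.8 CPM where listed) and was between 507.8 and 2125 CPM in every treated library of these clones. CPM here is the count of a gene scaled to the summed count over the listed genes of a library.

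Without doxycycline all 4 genes were expressed from both alleles, each with its own balance. The Cast share of Prps1 in the 24 untreated ESC libraries ranged from 0.531 to 0.617 (median 0.570). That of Nxt2 ranged from 0.233 to 0.433 (median 0.316). Nxt2 reads thus came mostly from the 129/Sv allele in every untreated library, whereas Prps1 reads came mostly from Cast/Ei. Tmem164 ranged from 0.282 to 0.650 (median 0.425) and Alg13 from 0.370 to 0.469 (median 0.413).

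Induction of Xist lowered the share of the transgene allele of all 4 genes in all 8 clones with untreated and treated libraries. In each of the 32 combinations of gene and clone every treated library was below every untreated library of that clone. The background used here and below is the X genes listed up to 10 Mb distal of the start of Prps1, without Xist, a limit set after seeing the data. Beyond it, 51 of 55 X genes had a mean 129 share under 0.05 in untreated libraries of Tg-X and Tg-X;8 clones, where a single Cast copy is left and the share cannot fall, against 1 of 278 up to it. Of the 133 background genes listed in all these libraries 17.3% had the pattern in every clone. That share is given as background, since this contrast chose the genes. In clone 68, which has no untreated library, the shares lay 0.144 (Prps1), 0.206 (Nxt2), 0.277 (Tmem164) and 0.126 (Alg13) below the untreated mean of clone 87.

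**Figure D1:**
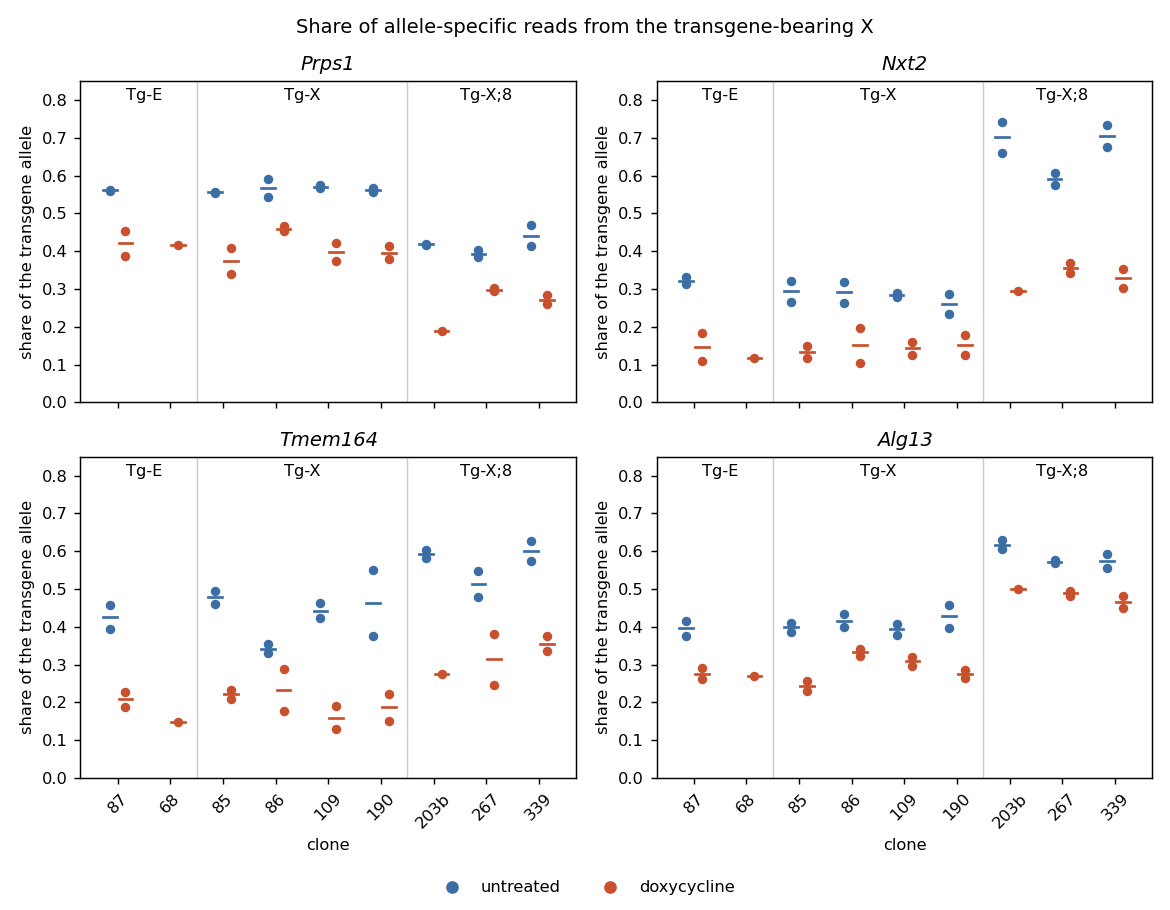
Share of allele-specific reads from the transgene-bearing X (Cast in Tg-E and Tg-X, 129 in Tg-X;8) for each gene and clone. Points are libraries, blue untreated and orange treated with doxycycline, and short lines are means. In every clone with both conditions the orange points lie below the blue points.

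For Prps1, the Cast share in clone 87 was 0.559 and 0.562 in the untreated libraries and 0.388 and 0.454 in the treated ones. In Tg-X clones the 8 untreated libraries lay between 0.542 and 0.590 (median 0.562) and the 8 treated ones between 0.340 and 0.466 (median 0.410). The 129 share in Tg-X;8 clones lay between 0.383 and 0.469 in 6 untreated libraries (median 0.415) and between 0.190 and 0.301 in 5 treated ones (median 0.283). The groups did not overlap in any category, and the same held for Nxt2, Tmem164 and Alg13. Of the background X genes listed throughout a category, 80.9% did not overlap in Tg-E, 24.5% in Tg-X and 16% in Tg-X;8. The delta share, which is the untreated minus the treated share of libraries with the same replicate number, was 0.140 in clone 87. It averaged 0.157 ± 0.034 (SD, n = 4 clones) in Tg-X and 0.164 ± 0.066 (SD, n = 3 clones) in Tg-X;8. The lowest loss was in clone 267, with 0.094, and the highest in clone 203b, with 0.226. Clone 267 also started from the lowest untreated 129 share, with a mean of 0.393 against 0.418 in 203b and 0.441 in 339.

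Nxt2 differed most between Tg-X and Tg-X;8 in delta share and in log2 allele ratio, and least in the remaining share given below. Its Cast share in clone 87 fell from 0.331 and 0.313 to 0.110 and 0.183. In Tg-X clones it was between 0.233 and 0.322 (median 0.282) without and between 0.105 and 0.198 (median 0.137) with doxycycline. The minor allele of the gene was thus the one reduced. In Tg-X;8 clones the major allele was reduced, from 129 shares between 0.574 and 0.742 (median 0.668) to between 0.294 and 0.368 (median 0.343). The delta share was 0.176 in clone 87, 0.137 ± 0.023 (SD, n = 4 clones) in Tg-X and 0.326 ± 0.079 (SD, n = 3 clones) in Tg-X;8. Relative to the untreated share, the remaining share averaged 0.515 in Tg-X and 0.496 in Tg-X;8, and the untreated 129 share was the larger one. On the log2 scale of the ratio of the transgene to the other allele, the edgeR estimates for Nxt2 were -1.50 ± 0.38 (SE) in Tg-E, -1.25 ± 0.18 in Tg-X and -1.89 ± 0.22 in Tg-X;8.

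Tmem164 had the largest delta share of the 4 genes in Tg-E and Tg-X. Its Cast share in clone 87 was 0.457 and 0.393 without and 0.227 and 0.189 with doxycycline. In Tg-X it lay between 0.330 and 0.550 (median 0.441) without and between 0.131 and 0.289 (median 0.200) with doxycycline. The 129 share in Tg-X;8 went from between 0.478 and 0.627 (median 0.578) to between 0.246 and 0.382 (median 0.336). The delta share was 0.217 in clone 87, 0.231 ± 0.082 (SD, n = 4 clones) in Tg-X and 0.257 ± 0.066 (SD, n = 3 clones) in Tg-X;8. Within Tg-X, clone 86 stood below the other 3, with 0.108 against 0.257 to 0.283. The log2 change of the allele ratio was -1.50 ± 0.33 (SE) in Tg-E, -1.62 ± 0.20 in Tg-X and -1.33 ± 0.19 in Tg-X;8.

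Alg13, the gene with the most reads, had the smallest delta share of the 4 genes in each category. Its Cast share in clone 87 was 0.416 and 0.375 without and 0.261 and 0.291 with doxycycline. In Tg-X it lay between 0.379 and 0.458 (median 0.403) without and between 0.231 and 0.341 (median 0.291) with doxycycline. In Tg-X;8 the 129 share was between 0.557 and 0.630 (median 0.585) and then between 0.451 and 0.501 (median 0.483), so that in the treated cells both alleles were close to equal. The delta share was 0.120 in clone 87, 0.119 ± 0.040 (SD, n = 4 clones) in Tg-X and 0.107 ± 0.022 (SD, n = 3 clones) in Tg-X;8. Clones 86, 109 and 267 were under a delta share of 0.1 for Alg13, at 0.084, 0.085 and 0.084, and clone 267 was also under it for Prps1. The log2 change of the allele ratio was -0.80 ± 0.14 (SE) in Tg-E, -0.77 ± 0.08 in Tg-X and -0.59 ± 0.08 in Tg-X;8. For Prps1 it was -0.81 ± 0.18, -0.91 ± 0.10 and -0.95 ± 0.13. Relative to the untreated share, Prps1 kept more than Alg13 in Tg-E (0.751 against 0.698) and Tg-X (0.721 against 0.709). In Tg-X;8 Prps1 kept less (0.609 against 0.825), so the order of these genes depends on the measure.

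The median delta share of the 4 genes was 0.158 in Tg-E, 0.147 in Tg-X and 0.210 in Tg-X;8. The medians over the background X genes with a value were 0.165 (219 genes), 0.110 (172 genes) and 0.0529 (168 genes). A mean delta share of at least 0.1 was reached by all 4 genes in each category, and by 72.6%, 55.8% and 31% of background X genes. In Tg-X;8 none of these had a mean delta share above that of Nxt2, and 120 were below that of Alg13. In Tg-E 76 were above that of Tmem164 and in Tg-X 8. Averaged over the 3 categories, Tmem164 ranked 9, Nxt2 16, Prps1 42 and Alg13 72 from the largest among 160 background X genes, a description since these values chose the genes.

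The genes between the 4 were not uniform. Psmd10, which encodes an assembly chaperone of the proteasome regulatory particle, and Acsl4, an acyl-CoA synthetase for polyunsaturated fatty acids, were the other genes of the interval listed in every library. Psmd10, 0.492 Mb past the start of Prps1, had delta shares between 0.00378 and 0.177 and its highest value in clone 85. Acsl4, between Nxt2 and Tmem164, had delta shares between 0.150 and 0.273 and lost share in all 8 clones without overlap. For Psmd10 the treated libraries were all lower in 4 of 8 clones. Ammecr1 and Tsc22d3 were listed in 40 and 37 of 60 libraries. Where it had a value, Ammecr1 had mean delta shares of -0.101 in clone 87 (1 untreated library), 0.282 in Tg-X and 0.0966 in Tg-X;8. For Tsc22d3 the delta share was 0.190 in clone 339. Against untreated clone 87 it was -0.194 in clone 68, at 2.13 CPM. The other 8 genes of the interval were listed in at most 8 libraries and in no assigned ESC library. In the 5 Mb before Prps1, the median delta share was 0.206 over 17 genes in Tg-E, 0.176 over 12 in Tg-X and 0.167 over 13 in Tg-X;8, so the loss was not limited to the stretch of the 4 genes.

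**Figure D2:**
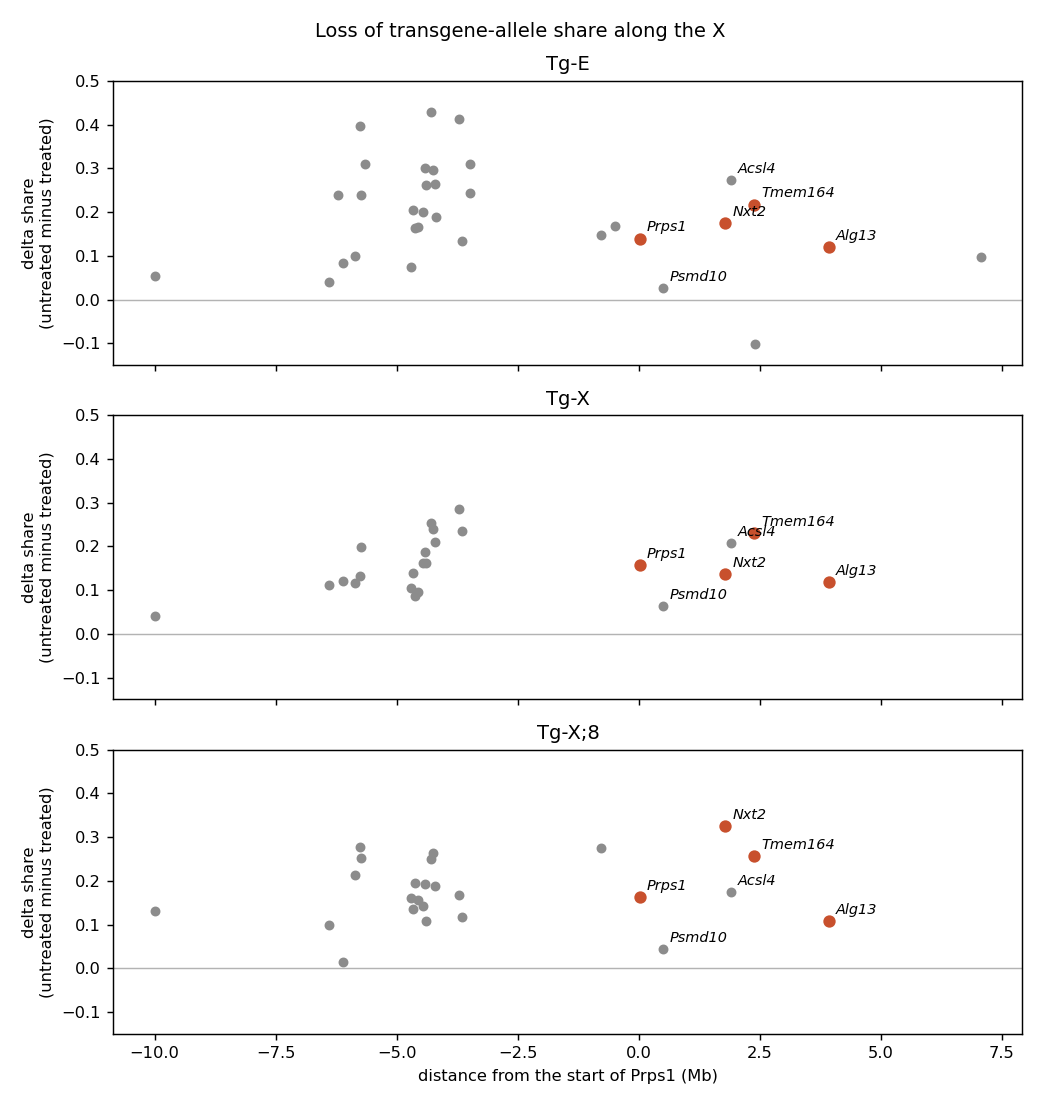
Mean delta share (untreated minus treated, vertical axis) of X genes against the distance of their listed position from the start of Prps1 in Mb, for the 3 categories of clones. Orange points are the 4 genes, grey points other X genes with a value in every clone of the category. Psmd10, between Prps1 and Nxt2, has 0.0259, 0.0640 and 0.0433. Genes from 8 Mb on are not drawn, and beyond 10 Mb most genes have a single copy in Tg-X and Tg-X;8.

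Loss did not follow the distance to the transgene in a simple way among the clones with a known site. Clone 86, with the transgene 5.98 Mb from the start of Prps1, had a mean delta share of 0.110 over the 4 genes, the lowest of the 8 clones. In clone 190, 29.5 Mb from Prps1 on the distal side, the mean was 0.175. In clones 109 and 87, both 37.0 Mb away on the proximal side, it was 0.170 and 0.163. Clone 86 also had a low median over the background X genes, 0.0587, while that of clone 190 was 0.0868 and those of clones 109 and 87 were 0.151 and 0.165. With 1 clone per site no comparison of distances was tested.

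Across the 8 clones the delta shares of Prps1 and Tmem164 went together most closely, with Pearson's r = 0.872, and those of Nxt2 and Alg13 least, with r = -0.060. These are descriptions over 8 clones which share libraries and depth between genes, and in which 3 clones measure the other allele. The X genes outside the interval whose delta shares were most like the mean of the 4 genes were Elk1 (r = 0.911), Vma21 (0.886), Pcsk1n (0.815), Idh3g (0.769) and Armcx1 (0.764), out of 142 compared. Only Armcx1, at 134.7 Mb, had a mean delta share of the size seen in the 4 genes, with 0.224. For the other 4 it was between 0.0247 and 0.0758.

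The total level separated the 4 genes. For Prps1 and Nxt2 the treated libraries were below the untreated ones in all 8 clones. This held in 4 of 8 clones for Tmem164 and in 6 of 8 for Alg13. Of the background X genes listed in all these libraries, 18% had treated CPM below untreated CPM in every clone. In bulk RNA, less RNA per cell and fewer cells that express a gene cannot be told apart.

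Prps1 in clone 190 was at 334.6 and 334.9 CPM without and at 79.2 and 61.7 CPM with doxycycline. In clone 85 it was at 406.6 and 451.0 CPM and then at 114.3 and 111.4 CPM. The ratio of treated to untreated was closest to 1 in clone 339, from 313.7 and 352.8 to 186.3 and 172.5 CPM. The treated over untreated ratio was 0.534 in clone 87, 0.291 in Tg-X (geometric mean, 0.210 to 0.403 over 4 clones) and 0.433 in Tg-X;8 (0.383 to 0.538 over 3 clones). The median ratio over background X genes was 0.780, 0.832 and 0.897. For Prps1 the level of the other allele, taken as the CPM split by the allele share, was lower in 8 of 8 clones. The transgene allele was at 0.147 to 0.407 of its untreated level and the other allele at 0.291 to 0.705. In clone 190, for example, the 129 allele of Prps1 went from 146.6 to 42.7 CPM.

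Nxt2 went from 91.5 and 98.6 to 43.2 and 23.6 CPM in clone 190, and from 89.0 and 89.2 to 23.9 CPM in clone 203b. The treated over untreated ratio was 0.595 in clone 87, 0.460 in Tg-X (0.352 to 0.621) and 0.463 in Tg-X;8 (0.268 to 0.676). The transgene allele was lower in every clone, at 0.112 to 0.406 of its untreated level. The other allele was lower in 6 of 8 clones, at 0.405 to 0.749, and was at 1.07 and 1.24 in clones 267 and 339.

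Tmem164 was at 66.2 and 62.2 CPM in untreated and at 48.9 and 47.7 CPM in treated libraries of clone 190, and at 35.2 and 31.6 and then 38.9 and 41.0 CPM in clone 109. The ratio was 0.773 in clone 87, 0.881 in Tg-X (0.752 to 1.20) and 0.913 in Tg-X;8 (0.771 to 1.01). The transgene allele was at 0.306 to 0.609 of its untreated level in all 8 clones, while the other allele was above its untreated level in 7 of 8, at up to 1.80 in clone 109. With each allele scaled by the summed allele counts of its library in place of the split CPM, the mean ratio of the other allele went from 1.07 to 0.833 in Tg-E and from 1.46 to 0.893 in Tg-X;8, so the direction of that allele is not settled there. In Tg-X it was 1.24 and 1.23 by these measures.

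Alg13 was at 499.4 and 388.9 CPM without and 427.4 and 404.9 CPM with doxycycline in clone 87. In clone 339 it was at 432.6 and 443.7 and then at 273.9 and 224.7 CPM. The ratio was 0.937 in clone 87, where its log2 ran from -0.26 to 0.097 without 1 library, 0.869 in Tg-X (0.781 to 1.11) and 0.732 in Tg-X;8 (0.569 to 0.892). The transgene allele was at 0.459 to 0.868 and the other allele at 0.718 to 1.26, lower in 4 of 8 clones. The total level of Psmd10 was lower in 7 of 8 clones, with a ratio of 0.655 in clone 87, 0.578 in Tg-X and 0.720 in Tg-X;8.

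**Figure D3:**
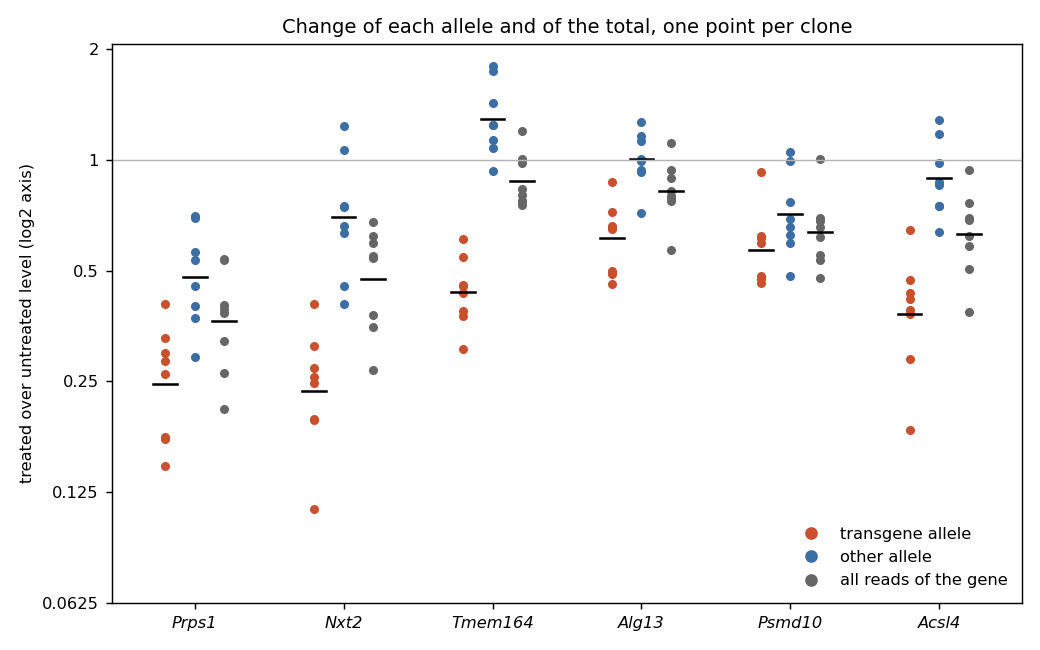
Treated over untreated level of the transgene allele (orange), the other allele (blue) and all reads of the gene (grey), on a log2 axis, with 1 point per clone and the geometric mean as a black line. For Prps1 all 8 points of the other allele lie under 1, and for Tmem164 7 of 8 lie above 1. The same count over the background X genes was not made.

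Prps1 has a paralog, Prps2, further distal on the X, and Nxt2 has the autosomal paralog Nxt1. Reads that fit both members of a pair cannot be assigned with certainty. Prps2 in Tg-X clones is present as Cast only, with a median Cast share of 1.00. Its CPM ranged from 41.8 to 81.2 in 8 untreated libraries and from 10.9 to 31.2 in the 5 treated libraries in which it was listed. In Tg-X;8 clones, where the only copy is on the X without the transgene, Prps2 had a treated over untreated ratio of 0.852. Nxt1 had ratios of 0.865 in Tg-E, 0.840 in Tg-X and 0.896 in Tg-X;8, and its median Cast share stayed between 0.485 and 0.538.

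Without doxycycline, the levels of Prps1 and Nxt2 depended on the clone. Prps1 was highest in clone 85 (428.8 CPM, mean of 2 libraries), followed by 267 (423.2), 228 (389.2), 273 (388.5), 86 (378.6), 190 (334.7), 339 (333.3), 203b (282.2), 109 (245.8), 87 (245.1), 160 (157.1) and 38 (150.8). The libraries of neighbours in this order overlapped for 6 of 11 pairs, among them 85 with 267, 109 with 87 and 160 with 38. The step from 87 to 160 was the widest, with 72.0 CPM between the nearest libraries. Nxt2 also was lowest in clones 38 (17.9 CPM) and 160 (23.1) and highest in 85 (115.1), and 2 of 11 neighbouring pairs overlapped. Tmem164 ranged from 33.4 CPM in clone 109 to 64.2 in clone 190, with 8 of 11 pairs overlapping. Alg13 was between 267.4 and 274.1 CPM in the chromosome 12 clones 228, 273 and 38 and between 399.8 and 508.2 CPM in the other 9 clones. Over the 12 clones, the log2 levels of Prps1 and Nxt2 had r = 0.801 and those of Prps1 and Alg13 r = 0.068, a description over clones in which treatment plays no part.

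**Figure D4:**
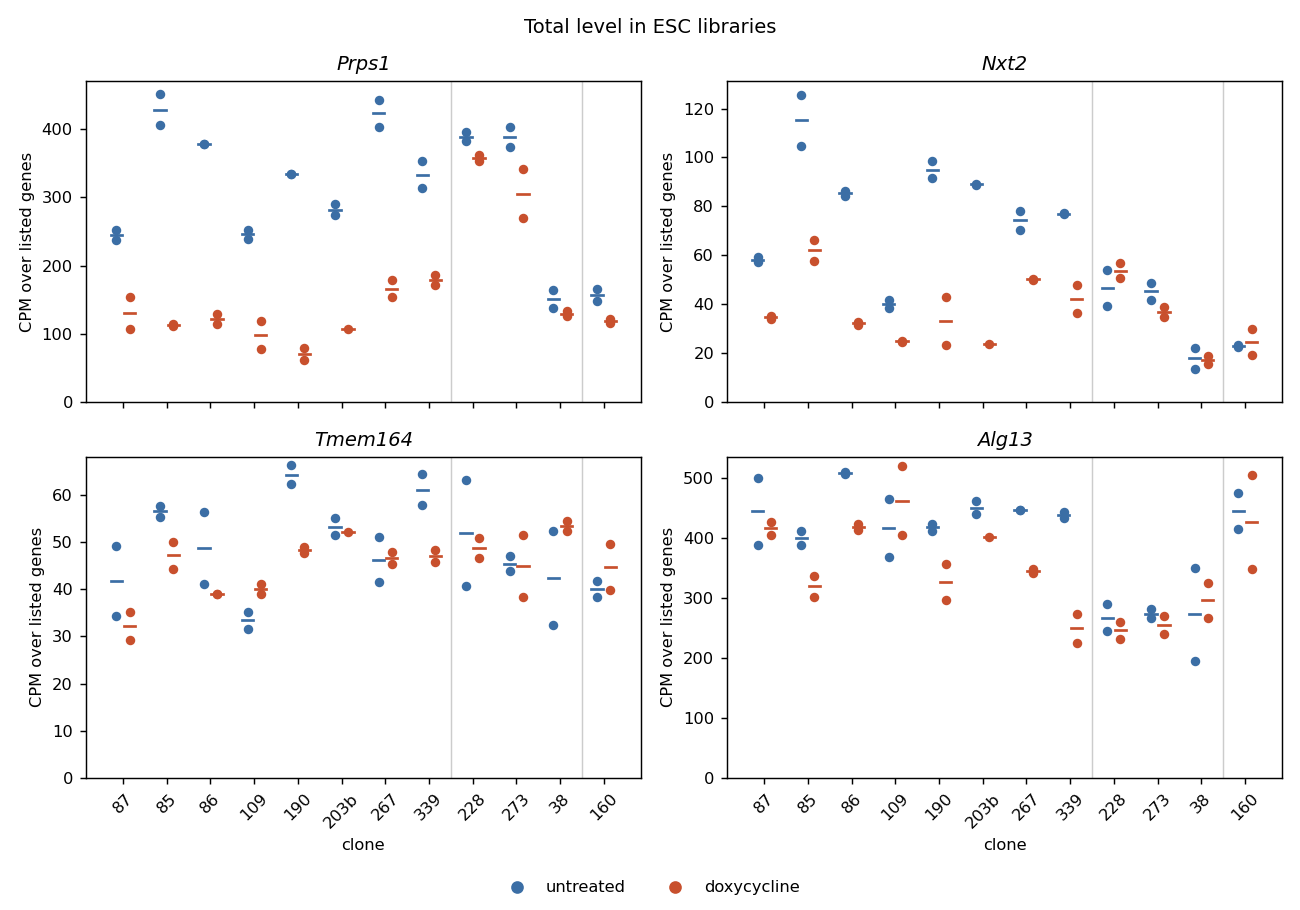
CPM over listed genes (vertical axis) of the 4 genes in ESC libraries of 12 clones, blue untreated and orange treated with doxycycline. Lines are clone means, and grey lines separate X-transgene clones, chromosome 12 clones and clone 160. Prps1 and Nxt2 drop in the X-transgene clones, and start from low levels in clones 38 and 160.

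In clones with the transgene on chromosome 12, doxycycline asks whether the 4 genes respond when Xist acts from an autosome. None was found to change. Of 5167 genes tested for a shift of the allele ratio with edgeR's quasi-likelihood test, 0.0774% were called at an adjusted p under 0.05, 4 genes, and none of the 4 genes described here was among them. At an unadjusted p under 0.05 there were 296 genes (5.73%), again without the 4, and DESeq2 called 1 gene (0.0194%). Xist was at 181.7 to 638.1 CPM in these treated libraries.

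Prps1 had Cast shares between 0.540 and 0.604 (median 0.570) in 6 untreated and between 0.559 and 0.591 (median 0.574) in 6 treated libraries. Nxt2 had 0.283 to 0.433 (median 0.318) and 0.281 to 0.474 (median 0.357), Tmem164 0.282 to 0.650 (median 0.433) and 0.260 to 0.514 (median 0.415), and Alg13 0.373 to 0.465 (median 0.429) and 0.409 to 0.435 (median 0.424). The treated and untreated libraries overlapped for each gene. The log2 change of the Cast to 129 ratio by edgeR was 0.03 for Prps1, with an interval of 2 SE on each side from -0.15 to 0.21 (adjusted p = 1.00). It was 0.22 for Nxt2 (-0.21 to 0.65, adjusted p = 0.954), -0.16 for Tmem164 (-0.55 to 0.23, adjusted p = 0.961) and -0.03 for Alg13 (-0.21 to 0.14, adjusted p = 0.998).

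Total levels in these clones were tested in the same libraries, where 0.0778% of 5144 genes were called by edgeR (4 genes), 460 (8.94%) had an unadjusted p under 0.05 and DESeq2 called 105 (2.04%). Since replicates are libraries of few clones, all p-values given here measure the spread between these libraries. Prps1 was at 396.3 and 382.1 CPM in untreated and 361.9 and 353.1 in treated libraries of clone 228. In clone 273 it was at 373.3 and 403.6 and then 342.0 and 269.5 CPM, and in clone 38 at 164.0 and 137.6 and then 133.7 and 126.1 CPM. Each treated library was thus lower than the untreated libraries of its clone. How many of all genes had this pattern was not counted. The log2 change of Prps1 was -0.26 ± 0.09 (SE, edgeR, unadjusted p = 0.0183, adjusted p = 0.388), so it did not pass the correction. Nxt2 (-0.08 ± 0.14, adjusted p = 0.917), Tmem164 (0.07 ± 0.12, adjusted p = 0.918) and Alg13 (-0.05 ± 0.11, adjusted p = 0.927) did not pass it either.

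The comparison of neurons with ESCs used the 4 ESC libraries of clone 38 and the 4 neuron libraries, and asks how the balance and level of the genes depend on the cell type. The neuron libraries listed 8 to 11 of 12 neuronal markers, at 151.6 to 1201 CPM summed, against 2 or 3 at 97.7 to 143.4 CPM in ESCs of clone 38. All 10 ESC markers were still listed in neuron libraries, at 2058 to 3944 CPM summed, against 8457 to 11526 CPM in the ESCs. Markers of glia (52.1 to 316.9 against 48.9 to 104.2 CPM), neural progenitors (118.0 to 233.1 against 11.2 to 38.9), fibroblasts (139.1 to 606.2, none listed in ESCs of clone 38) and endoderm (42.6 to 120.2, none listed) were also present. The part of other cell types in the values below was not tested. Neuron libraries also were deeper, with 7068712 to 10698003 allele-specific reads, and Xist was at 597.0 and 1084 CPM in their untreated libraries.

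Nxt2, mostly of 129/Sv origin in ESCs, was near balance in neurons. Its Cast share was 0.550 and 0.531 in the neuron libraries labelled 20 and 0.453 and 0.455 in those labelled 38, against 0.300, 0.433, 0.474 and 0.444 in ESCs of clone 38. The ranges overlapped, and the log2 change of the allele ratio of 0.61 ± 0.32 (SE) did not pass the test (edgeR, adjusted p = 0.335). Tmem164 was at 0.405, 0.428, 0.490 and 0.446 in neurons and at 0.282, 0.386, 0.260 and 0.361 in ESCs, without overlap. The share of all genes without overlap in this comparison was not counted. Of 6777 genes, 5.28% were called, and Tmem164 with a log2 change of 0.70 ± 0.20 was not (unadjusted p = 0.00476, adjusted p = 0.0739). With clone 38 alone, an alternative chosen after seeing the data, it was 0.85 with an adjusted p of 0.0210, and over the alternatives its adjusted p ranged from 0.0210 to 0.401. Untreated ESCs of clone 228 had Tmem164 shares of 0.527 and 0.650, above all neuron libraries.

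Prps1 had Cast shares between 0.498 and 0.584 in neurons and between 0.540 and 0.589 in ESCs of clone 38 (log2 change -0.19 ± 0.12 SE, edgeR, adjusted p = 0.442). Alg13 had shares between 0.433 and 0.446 in neurons and between 0.373 and 0.450 in ESCs (0.10 ± 0.10, adjusted p = 0.668). For both genes the ranges overlapped.

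In total level, 34.4% of 6748 genes differed between neurons and ESCs by edgeR, 16.5% higher and 17.8% lower in neurons. Tmem164 was called higher in neurons, at 58.2, 63.2, 59.9 and 62.9 CPM against 52.2, 32.4, 54.4 and 52.2 CPM in ESCs (log2 change 0.45 ± 0.15 SE, edgeR, adjusted p = 0.0396). This call rests on the whole set, because in 6 of the 8 fits that leave out 1 library the adjusted p was between 0.0746 and 0.121. These leave out either treated ESC library or any neuron library. Without the second untreated ESC library, the one at 32.4 CPM, the log2 change of Tmem164 was lowest, at 0.36 (edgeR, adjusted p = 0.0450). Alg13 was at 403.1, 433.2, 273.7 and 361.5 CPM against 349.5, 195.7, 324.4 and 267.4 CPM and did not pass (0.46 ± 0.18, adjusted p = 0.0794). Without the first untreated ESC library of clone 38 its adjusted p was 0.0295. Nxt2, at 12.4 to 13.5 CPM in neurons and 13.7 to 22.1 CPM in ESCs, did not overlap but did not pass (-0.37 ± 0.17, adjusted p = 0.122). How many of all genes did not overlap in level was not counted. Prps1 was at 98.7 to 141.6 CPM in neurons and 126.1 to 164.0 CPM in ESCs of clone 38 (-0.11 ± 0.16, adjusted p = 0.622).

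**Figure D5:**
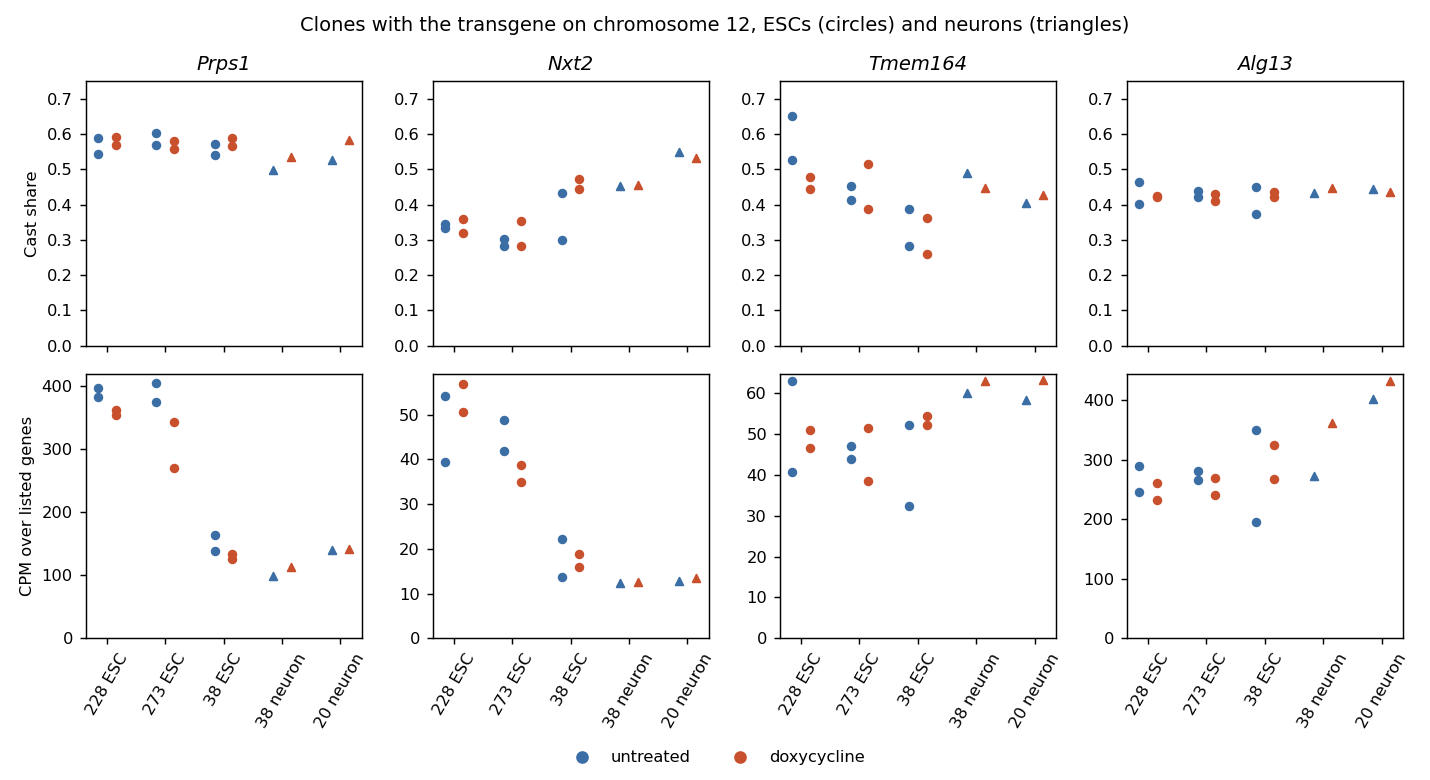
Cast share (top) and CPM over listed genes (bottom) of the 4 genes in clones with the transgene on chromosome 12. Circles are ESC libraries, triangles neuron libraries, blue untreated and orange treated. For Nxt2 the neuron shares lie between 0.453 and 0.550, and for Prps1 and Nxt2 clone 38 has the lowest ESC levels.

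Genes of the same pathways were read in the same comparison of total levels, in which 34.4% of all genes were called (16.5% higher, 17.8% lower). Of 15 tested genes of purine and phosphoribosyl pyrophosphate metabolism, 1 rose in neurons, Prpsap2 (log2 change 0.71 ± 0.15 SE, edgeR, adjusted p = 0.0081), a regulatory partner of the synthetase, and 1 fell, Umps (-0.54 ± 0.18, adjusted p = 0.0399), of pyrimidine synthesis. None of 15 mRNA export genes passed in edgeR, with 3 at an unadjusted p under 0.05 and 2 called by DESeq2. Of 22 genes of N-glycan synthesis 5 rose and 3 fell, with Gfpt1 (1.08 ± 0.26, adjusted p = 0.0134), Stt3b (0.73 ± 0.14, adjusted p = 0.00549), Alg11 (0.63 ± 0.20, adjusted p = 0.0381) and Alg5 (0.56 ± 0.18, adjusted p = 0.0352) having the largest changes. This is close to the share over all genes. Of 8 genes of ether lipids and lipid peroxidation 3 rose and none fell, also close to that share in sum. These were Acsl4 (1.71 ± 0.18, adjusted p = 2.5e-04), Far1 (0.92 ± 0.14, adjusted p = 0.0017) and Tmem189 (0.75 ± 0.17, adjusted p = 0.00969), of which the last 2 act in plasmalogen synthesis. The median log2 change was 0.06, -0.09, 0.15 and 0.36 for these lists, 0.17 for the 4 genes and -0.01 over all genes tested. With doxycycline in chromosome 12 clones no gene of these lists passed in edgeR for total level, with an unadjusted p under 0.05 in some (2 of purine metabolism, 1 of export, 2 of N-glycan synthesis) and none called by DESeq2.

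Doxycycline in the neurons was tested on 4 libraries, 1 pair for each label. Of 11292 genes 1.23% were called by edgeR, and none of the 4 genes was. Prps1 went from 0.525 to 0.584 in the pair labelled 20 and from 0.498 to 0.536 in the pair labelled 38. This was a log2 change of the Cast to 129 ratio of 0.28 ± 0.13 (SE, unadjusted p = 0.0415, adjusted p = 0.751). Nxt2 (-0.05 ± 0.32), Tmem164 (-0.07 ± 0.13) and Alg13 (0.02 ± 0.09) had adjusted p = 1.00.

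Clone 160, with the Tsix-Stop allele on the 129/Sv X, was compared without doxycycline with the 6 untreated libraries of the chromosome 12 clones. Since it is a single clone, this allele cannot be told apart from other differences of the line. The Cast shares of its 2 untreated libraries were 0.609 and 0.595 for Prps1, 0.421 and 0.348 for Nxt2, 0.380 and 0.541 for Tmem164, and 0.469 and 0.434 for Alg13. The log2 changes of the Cast to 129 ratio were from 0.14 for Alg13 to 0.34 for Nxt2, with that of Tmem164 (0.27) turning to -0.24 without the second untreated library of clone 160 and to 0.70 without the first, and none passed the test (edgeR, adjusted p between 0.817 and 0.872 for Prps1, Nxt2 and Alg13 and 0.918 for Tmem164). Over all 5297 genes 1.68% were called, and 17.8% of the 180 X genes. In the treated libraries of clone 160 the shares were 0.662 and 0.608, 0.302 and 0.302, 0.521 and 0.492, and 0.437 and 0.422 in the same order of genes. Prps1 was at 165.4 and 148.9 CPM untreated and 121.8 and 116.3 CPM treated in this clone.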

How the data were processed

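RNA-seq was measured in 60 libraries, of which 52 were assigned to groups by their labels. The other 8, of clone 292, have cell-type labels that conflict with their titles and entered no comparison. Per the submitters' processing notes and the study's methods, the authors aligned reads to 129/Sv and Cast/Ei genomes on mm10 with TopHat2 2.0.6, counted alleles with SAMtools at exonic polymorphisms past a coverage minimum, and counted genes with HTSeq 0.6.1. The authors deposited, per gene and library, raw counts of Cast and 129 reads, their sum and all reads, and the Cast fraction of allele-specific reads. A gene absent from a library had too few reads and is not a 0. At low coverage fewer polymorphisms pass, so allele levels were taken as CPM split by the allele share, a choice made after seeing the data.

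The test of allele ratios was that of edgeR 4.0.16 under R 4.3.3 (quasi-likelihood test, a term for each library, Benjamini-Hochberg over all genes listed in every library of a fit). Total counts were tested the same way with TMM factors. CPM divides by the summed count of the listed genes, which number 5871 to 13036 per assigned library. The SE is the log2 change over the square root of F. DESeq2 1.42.0 was an alternative, and the procedures were tested on simulated data. Other steps used Python 3.11.15, numpy 2.4.6, pandas 2.3.3 and matplotlib 3.10.9. The genes and gene lists were chosen with earlier results of these data known. Genes named beyond the 4 are those of the interval, paralogs, the 5 most alike X genes (with at least 50 reads on average), and up to 4 called genes per list with the largest changes. Acsl4 is counted under the interval and the ether lipid list.

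Untreated ESC libraries held 731374 to 3656039 allele-specific reads and treated ones 991212 to 5830149. Replicate libraries differed by more than sampling noise in all 23 groups with replicates (chi-square per degree of freedom 2.51 to 39.6). The study calls them biological replicates. Same-numbered libraries were paired for the delta share only.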

Additional observations from a re-analysis of the deposited data

How the results depend on the processing

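The median delta share of the 4 genes kept its direction under every alternative run (reads pooled, at least 20 reads, no replicate block, leaving out a library or a clone). It lay within 1 SD between library pairs of the reported values (SD 0.0547 in Tg-E, 0.0341 in Tg-X and 0.0593 in Tg-X;8). In Tg-E these pairs are of 1 clone, and without a library the median was 0.119 to 0.196. Counts of called genes moved more. For the allele ratio in chromosome 12 clones the count of 4 was 1 with DESeq2, 1 with clone 160 and 1 to 10 without a library. For total counts there it was 105 with DESeq2, 7 with no normalization factor, 0 with the replicate block, 10 with clone 160 and 0 to 157 without a library. With the replicate block on the allele ratio it was 4. The deviations of same-numbered libraries correlated over 0.1 in none of 3 clones by share and in 2 by level (r of log2 CPM 0.15, -0.19 and 0.64 in 228, 273 and 38), so the numbers were not taken to pair the libraries. For neurons against ESCs the count of 358 in allele ratio was 92 in untreated libraries and 203 to 349 without a library, and the count of 2319 in total level was 966 in untreated libraries, 1340 in clone 38 alone and 1282 to 2552 without a library. The count of 139 for doxycycline in neurons was 27 with DESeq2, and leaving out a library could not be fitted there. The count of 89 for clone 160 was 46 to 104 without a library. The log2 total change of Tmem164 in Tg-E was -0.61 to -0.089 without a library.

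Of values of single genes, several near 0 changed sign without 1 library. In chromosome 12 clones the allele change was -0.031 to 0.082 for Prps1 and -0.084 to 0.019 for Alg13, and the total change -0.0027 to 0.13 for Tmem164 and -0.13 to 0.016 for Alg13. Tmem164 in clone 160 was -0.24 to 0.70, and -0.24 without its second untreated library. The total change of Alg13 in Tg-E was -0.26 to 0.097. The total change of Prps1 in neurons was -0.21 to 0.014. The other allele of Tmem164 was -0.26 (Tg-E) and -0.16 (Tg-X;8) on the log2 scale with allele reads scaled to the allele-specific total. This alternative, clone 38 alone and the limit on background X genes were chosen after seeing the data. The Tmem164 call in neurons had an adjusted p of 0.112 in clone 38 alone, 0.137 with no normalization factor and 0.422 in untreated libraries. Depth limits Nxt2 and Tmem164 most, with as few as 17 and 20 reads in an ESC library.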

Other observations

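The 8 libraries labelled clone 292, left out of every comparison, listed all 4 genes. The Cast share of Prps1 was between 0.534 and 0.618 (median 0.580) and that of Alg13 between 0.410 and 0.452 (median 0.425). Nxt2 ranged from 0.202 to 0.534 (median 0.401) and Tmem164 from 0.350 to 0.607 (median 0.512). The level of Prps1 was between 117.2 and 294.2 CPM (median 127.3), that of Nxt2 between 15.5 and 37.0 CPM (median 24.7), that of Tmem164 between 36.6 and 60.9 CPM (median 46.2) and that of Alg13 between 334.9 and 596.9 CPM (median 409.7).

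No library stood apart from its group by a gap test (Dixon's test at the 95% level) on Cast share or CPM of the 4 genes in 48 sets of 5 to 8 libraries of a category and treatment. These sets mix clones, so a library that differs from the other one of its clone can go unseen. Groups with fewer than 5 libraries were not tested. The untreated ESC libraries of clone 38 differed most between replicates (chi-square per degree of freedom 39.6), with Alg13 at 349.5 and 195.7 CPM.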
